A study of Mus musculus with 12 samples.

Results

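The axon guidance ligands and receptors comprise the semaphorins of classes 3 to 7, ephrins, netrins and Slits as ligands, and the plexins, neuropilins, Eph, Unc5 and Robo families as receptors. They were chosen by gene symbol, from families picked with earlier results of these data known. In all, 65 of the 17097 genes with a probe set of their own on the array belonged to them (33 ligands and 32 receptors). Each gene was represented by its probe set with the highest mean over the 12 arrays. The study set macrophages that had moved into tumour spheres against those left outside in the same cultures, in 4 groups of 3 arrays. The first 2 groups were CD11b-positive macrophages isolated from spheres at 24 h and at 48 h, and the other 2 were bone marrow-derived macrophages collected from the agar cultures at 24 h and at 48 h. All macrophages derived from C57BL/6 bone marrow, and the spheres were grown on agar from TT9423, a mouse neuroblastoma line. The cells inside spheres were freed by enzymatic digestion and held on a CD11b magnetic column, whereas the sources used here do not give the handling of the cells outside. No arm carried a drug or an engineered allele, every replicate was an independent experiment pooled over wells, and the protocol text describes 24 h of co-culture for all samples, so that 48 h rests on the titles and the time label.

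Guidance cues are secreted or membrane-bound proteins that steer growing axons by attraction or repulsion, acting through receptors that change the actin cytoskeleton of the growth cone. Class 3 semaphorins bind neuropilins, which signal together with plexins, other semaphorins bind plexins directly, ephrins act on Eph receptor kinases, netrins on Unc5 and DCC-family receptors, and Slits on Robo receptors. The same families act outside the nervous system, among others in the adhesion and migration of macrophages and in the growth of blood vessels.

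Of the 65 members, 48 were tested, meaning that 3 or more arrays gave their probe set a log2 signal above 2.77, a filter level set at the 40th percentile of the table. By family these were 18 of 20 semaphorins, 7 of 7 ephrins, 1 of 4 netrins, 2 of 2 Slits, 9 of 9 plexins, 2 of 2 neuropilins, 6 of 13 Eph receptors, 3 of 4 Unc5 receptors and 0 of 4 Robo receptors. The 17 members left out were Epha3, Epha5, Epha6, Epha7, Epha8, Epha10, Ephb6, Ntn3, Ntn4, Ntn5, Robo1, Robo2, Robo3, Robo4, Sema3f, Sema3g and Unc5d. Slit3, Efna3 and Ephb2 were not analysed here. All values are log2 RMA signals, a scale on which a difference of 1 is a doubling, and levels of different genes are not set against each other because each comes from its own probes.

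The arrays held macrophage RNA in all 4 groups: all 12 macrophage markers exceeded the filter level on at least some arrays, and their mean log2 signal per array was 10.00 to 10.46 in spheres and 10.04 to 10.22 outside at 24 h, and 10.31 to 10.34 in spheres and 10.11 to 10.23 outside at 48 h. Single macrophage markers moved both ways. Cx3cr1, Cd14, Fcgr1 and Itgam had higher means in spheres at both times. Csf1r, Adgre1, Cd68, Lyz2, Mertk, Spi1, Ptprc and Tyrobp had lower ones. The largest shift, which raised the list mean in spheres, was that of Cx3cr1. It averaged 8.41 in spheres against 5.91 outside at 24 h and 9.06 against 5.66 at 48 h. Some markers of other cells moved with the sphere comparison. The list of 20 neuroblastoma and neural markers, 19 of them on the array and 14 tested, averaged 3.19 to 3.30 in spheres against 2.96 to 3.02 outside at 24 h, and 3.22 to 3.24 in spheres against 2.82 to 2.89 outside at 48 h. Among these, Gata3, Chga, Tubb3, Nefl and Nefm did not exceed the filter level on any array, 2 at 24 h (Gap43 and Ncam1) and 3 at 48 h (with Elavl4) were called higher in spheres, and 0 were called lower. The growth cone protein Gap43 averaged 6.97 ± 0.66 in spheres and 2.98 ± 0.20 outside at 24 h, and 6.92 ± 0.44 in spheres and 2.51 ± 0.30 outside at 48 h (SD, n = 3). It carried most of the shift of the list. The sympathetic lineage markers Phox2a, Th and Dbh were not called. Their means at 24 h were 2.87 in spheres and 2.94 outside for Phox2a, 3.02 in spheres and 3.07 outside for Th, and 3.11 in spheres and 3.47 outside for Dbh. The fibroblast and stromal list averaged 5.32 to 6.04 in spheres against 4.54 to 4.93 outside at 24 h, and 5.77 to 5.91 in spheres against 4.54 to 5.27 outside at 48 h, with 6 higher and 2 lower of 12 at 24 h and 7 higher and 3 lower at 48 h. The granulocyte list ran the other way, at 9.42 to 10.23 in spheres against 10.71 to 11.16 outside at 24 h and 8.83 to 9.62 in spheres against 10.25 to 10.78 outside at 48 h, with 7 of 9 lower at each time. The dendritic list averaged 4.20 to 4.39 in spheres against 3.91 to 3.99 outside at 24 h. At 48 h it averaged 4.19 to 4.24 in spheres against 3.81 to 4.09 outside. Among its genes on the array only Fscn1 had higher means in spheres at both times, 9.63 against 7.73 outside at 24 h. The lymphocyte list overlapped between the groups at each time. In bulk RNA, fewer cells of a type and less RNA per cell cannot be told apart. TT9423 cells on their own were not analysed here. The part of other cells in the results that follow was not tested. Array medians lay between 3.03 and 3.17, and the array of replicate 3 in spheres at 48 h had the lowest mean log2 signal, 4.06 against 4.20 to 4.22 on the others.

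**Figure D1:**
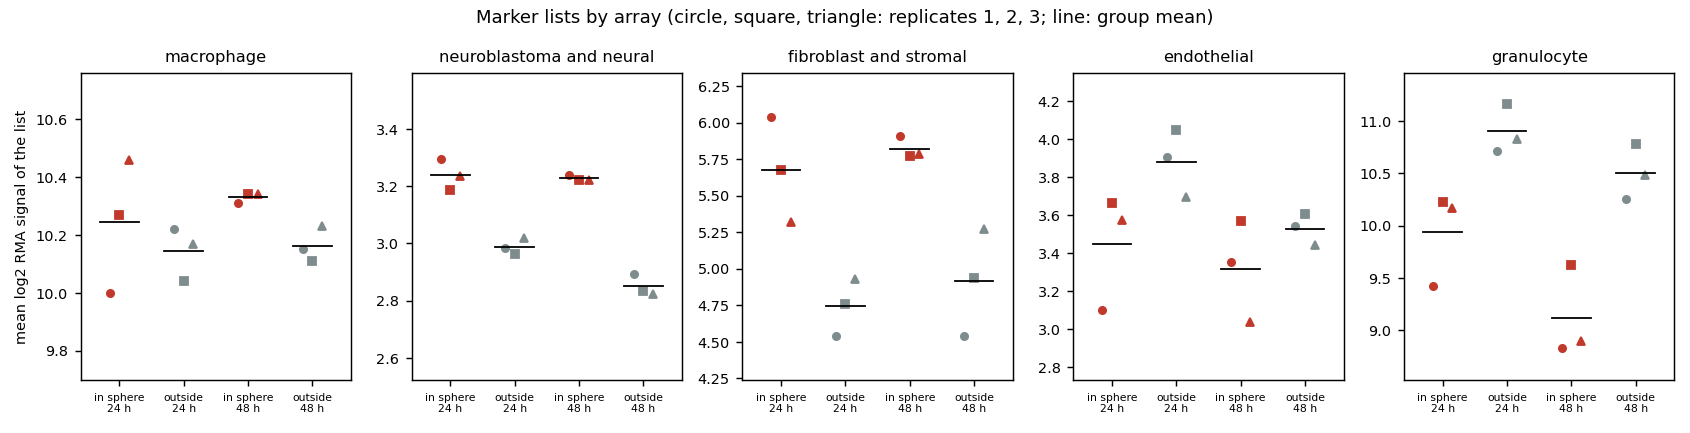
Mean log2 RMA signal of 5 marker lists on each array, in spheres (red) and outside (grey) at 24 h and 48 h, with symbols for replicates 1, 2 and 3 and a line for the group mean. The neural and stromal lists sit higher, and the granulocyte list lower, on all 3 arrays in spheres than on all 3 outside at each time, and the macrophage list overlaps between the groups at 24 h and sits slightly higher in spheres at 48 h.

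At 24 h, 14 of the 48 tested members passed an adjusted p of 0.05 in limma, 9 higher and 5 lower in spheres than outside. That share of 29.2% lies beside 29.4% of all 12488 genes tested, with 15.8% of all genes higher and 13.6% lower, so the members as a list were not called more often than genes at large. At 48 h, 15 members passed, 8 higher and 7 lower, a share of 31.2% beside 37.5% of all genes (15.2% higher and 22.3% lower). The median log2 difference of the 48 members was 0.06 at 24 h, against -0.01 over all genes, and -0.12 at 48 h, against -0.10 over all genes. In all 14 calls at 24 h and all 15 at 48 h the 3 arrays in spheres did not overlap with the 3 outside, which held together with a call for 28.7% of all genes at 24 h and 36.8% at 48 h. Of the 48 members, calls with a fitted difference of at least 1 in size numbered 7 higher and 1 lower at 24 h. At 48 h they numbered 5 higher and 3 lower. Such calls made up 10.5% of all genes at 24 h and 13.1% at 48 h. The 7 at 24 h include Ntn1, whose difference has only a bound, given below. The ligands gave 7 higher and 3 lower of 28 at 24 h and 7 higher and 4 lower at 48 h. The receptors gave 2 higher and 2 lower of 20 at 24 h and 1 higher and 3 lower at 48 h.

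The same 12 members were called in the same direction at both times, which is 85.7% of the 24 h calls and 80.0% of the 48 h calls. Higher in spheres at both times were the ligands Sema3a, Sema3c, Sema5a, Efna5, Efnb2, Ntn1 and Slit2 and the receptor Epha2. Lower at both times were the ligands Sema4d, Sema7a and Efnb1 and the receptor Plxna1. Plxna3 (higher) and Nrp1 (lower) passed at 24 h alone, and Sema3d, Plxna2 and Plxnd1 (all lower) at 48 h alone. These are calls made separately at each time, and the test of the change between the times is given further on. Ntn1 and Sema3d are counted among them, although each passed the filter only through the group in which it was higher. In some alternative fits Plxna2 also passed at 24 h and Plxna3 at 48 h.

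**Figure D2:**
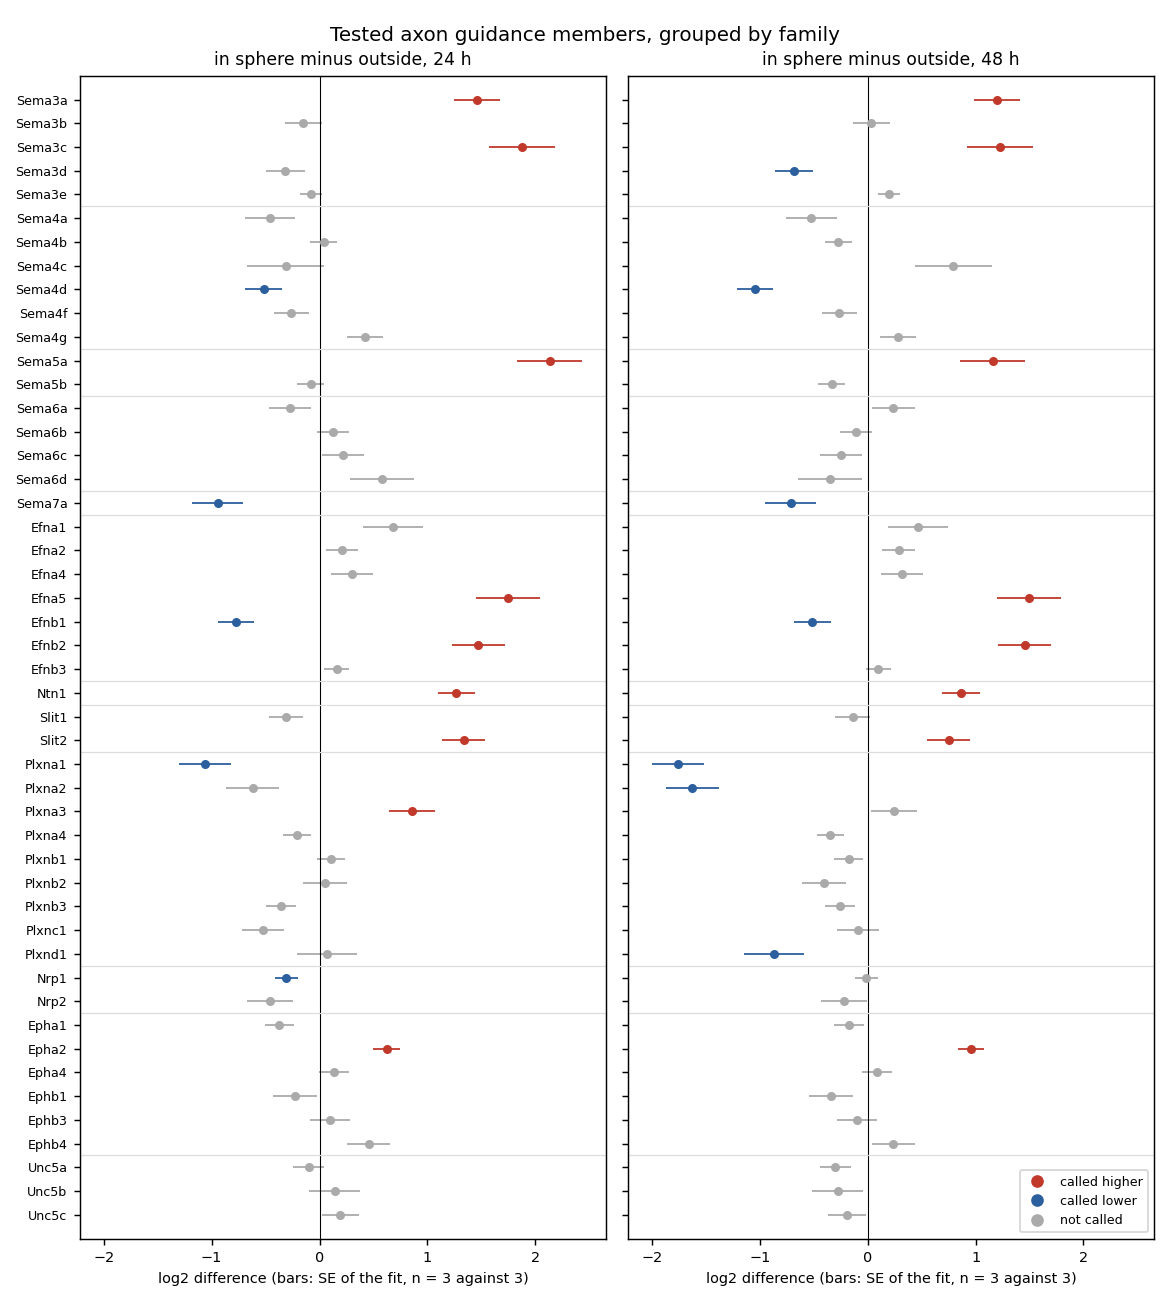
Log2 difference, in spheres minus outside, of the 48 tested members at 24 h (left) and 48 h (right), with the standard error of the limma fit as bars (n = 3 against 3) and colours for called higher, called lower and not called. Differences ran from -1.06 to 2.13 at 24 h and from -1.76 to 1.50 at 48 h, with Sema5a the highest and Plxna1 the lowest at 24 h and Efna5 the highest and Plxna1 the lowest at 48 h.

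Promoter sequence is shown for 4 windows of called members, to set 2 ligands that rose beside a receptor and a ligand that fell. The windows are those of RefSeq on GRCm38.p6, 300 bases from 250 before to 50 after an annotated start, written 5′ to 3′ on the strand of the gene. Capitals mark matches, on either strand, to ACGTG (the core of the hypoxia response element), TGANTCA and GGGCGG (the GC box bound by Sp1-type factors). TGANTCA takes any base at N and so is wider than the AP-1 element, TGACTCA or TGAGTCA. Overlapping matches run together. Sema3c, chr5:17574566-17574865 on the + strand, held 1 ACGTG and 3 GGGCGG matches. Sema5a, chr15:32244563-32244862 on the + strand, held 5 GGGCGG matches. Plxna2, chr1:194619579-194619878 on the + strand, held 2 GGGCGG matches. The window of Sema4d at chr13:51748761-51749060 on the - strand, 1 of its 3, held 1 ACGTG and 1 TGANTCA match. The latter reads TGAATCA, which is not the AP-1 element itself.
Sema3c: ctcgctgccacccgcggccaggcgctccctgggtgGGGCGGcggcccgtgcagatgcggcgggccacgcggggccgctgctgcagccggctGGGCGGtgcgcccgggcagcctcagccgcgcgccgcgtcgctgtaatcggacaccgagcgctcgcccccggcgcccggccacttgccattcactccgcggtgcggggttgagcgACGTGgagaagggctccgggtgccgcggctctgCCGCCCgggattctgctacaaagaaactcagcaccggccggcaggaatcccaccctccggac
Sema5a: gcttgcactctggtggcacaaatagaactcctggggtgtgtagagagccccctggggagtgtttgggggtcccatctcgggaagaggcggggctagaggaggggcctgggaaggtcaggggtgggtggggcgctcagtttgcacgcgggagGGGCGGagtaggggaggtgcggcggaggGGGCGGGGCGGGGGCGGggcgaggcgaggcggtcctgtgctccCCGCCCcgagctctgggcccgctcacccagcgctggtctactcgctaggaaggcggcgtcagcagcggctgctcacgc
Plxna2: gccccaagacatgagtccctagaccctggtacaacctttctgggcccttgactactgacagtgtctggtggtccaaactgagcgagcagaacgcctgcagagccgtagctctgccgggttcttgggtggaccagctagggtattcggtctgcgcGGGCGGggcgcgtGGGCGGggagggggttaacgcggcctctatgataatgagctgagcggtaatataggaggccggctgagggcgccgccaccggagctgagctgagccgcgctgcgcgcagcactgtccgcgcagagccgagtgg
Sema4d: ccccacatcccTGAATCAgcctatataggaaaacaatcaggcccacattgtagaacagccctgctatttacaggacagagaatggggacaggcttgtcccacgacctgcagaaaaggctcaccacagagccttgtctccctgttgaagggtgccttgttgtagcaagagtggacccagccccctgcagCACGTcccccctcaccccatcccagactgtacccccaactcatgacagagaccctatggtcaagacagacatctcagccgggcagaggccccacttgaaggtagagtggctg
Windows were found for 56 of the 65 members and for 15 of the 17 members called at either time, 17 windows in all. ACGTG was present in 2 of these 17 windows (11.8%), against 19.6% of all 32851 windows used. TGANTCA was present in 1 (5.9%), against 7.8% of all windows. GGGCGG was present in 12 (70.6%), against 35.7% of all windows, and the median GC content was 64.7% in the windows of called members and 52.7% over all windows. These are matches of letters within the windows only. Windows of uncalled members were not counted apart, so the shares do not separate called members from their families.

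Among the class 3 semaphorins, secreted proteins named for the collapse of growth cones, 2 of 5 tested genes were higher in spheres at each time. Sema3a, the repellent that acts through Nrp1 and class A plexins, had 4.69, 4.45 and 4.35 in spheres, against 3.18, 2.91 and 3.01 outside at 24 h, a difference of 1.46 ± 0.21 (SE; adjusted p = 0.000327). At 48 h it had 4.53, 4.53 and 4.09 in spheres, against 3.72, 2.84 and 3.00 outside, a difference of 1.20 ± 0.21 (adjusted p = 0.000876). The lowest array in spheres was above the highest outside at each time, and replicate 1 outside at 48 h was the nearest to the arrays in spheres. Sema3c, a ligand of both neuropilins and of Plxnd1 that also acts in vessel growth, had 5.28, 5.45 and 4.34 in spheres, against 3.12, 3.39 and 2.93 outside at 24 h, and 4.48, 4.42 and 3.45 in spheres, against 2.66, 3.00 and 3.01 outside at 48 h. Its differences were 1.88 ± 0.31 (adjusted p = 0.000740) at 24 h and 1.22 ± 0.31 (adjusted p = 0.00787) at 48 h. Replicate 3 was the lowest of the arrays in spheres at each time and still lay above every array outside. Sema3d, another neuropilin ligand, was lower in spheres at 48 h, with 2.43, 2.71 and 2.58 in spheres, all 3 under the filter level, against 3.56, 3.38 and 2.83 outside (adjusted p = 0.00986), so that its difference has only a bound, at least 0.48 in size. Sema3d passed the filter only through arrays outside, where it was higher, so its adjusted p-value is a description. Sema3b and Sema3e did not pass at either time, with differences between -0.15 and 0.20.

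Sema5a, a transmembrane semaphorin with thrombospondin repeats that binds Plxna1 and Plxna3, had the largest difference of any member at 24 h. It had 5.87, 4.31 and 4.92 in spheres, against 2.84, 2.92 and 2.94 outside at 24 h, a difference of 2.13 ± 0.30 (SE; adjusted p = 0.000271) or 4.39-fold. At 48 h it had 4.46, 4.23 and 4.01 in spheres, against 2.87, 3.38 and 2.97 outside, a difference of 1.16 ± 0.30 (adjusted p = 0.00939) or 2.24-fold. The arrays outside lay close together near the filter level at 24 h, while those in spheres were spread by more than 1 on the log2 scale, with replicate 1 the highest. The other member of its class, Sema5b, did not pass, and its arrays in spheres were not above the filter level.

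The class 4 and class 7 semaphorins, membrane-bound ligands with known roles in immune cells, gave no called member that was higher. Sema4d, the ligand of Plxnb1 and of Cd72 on B cells, had 5.70, 6.02 and 6.37 in spheres, against 6.49, 6.46 and 6.70 outside at 24 h, a difference of -0.52 ± 0.17 (SE; adjusted p = 0.0377). By 48 h the values were 5.84, 5.89 and 5.47 in spheres, against 6.75, 6.71 and 6.88 outside, a difference of -1.04 ± 0.17 (adjusted p = 0.000488). The arrays did not overlap at either time, although replicate 3 in spheres at 24 h came within 0.1 of the lowest array outside. Sema7a, a GPI-anchored semaphorin that acts on integrin beta-1 and Plxnc1, had 5.66, 5.83 and 5.19 in spheres, against 5.96, 6.81 and 6.74 outside at 24 h (-0.94 ± 0.24, adjusted p = 0.0100), and 5.67, 5.95 and 5.51 in spheres, against 6.20, 6.40 and 6.68 outside at 48 h (-0.71 ± 0.24, adjusted p = 0.0332). Sema4c, a Plxnb2 ligand, gave -0.32 ± 0.36 at 24 h and 0.79 ± 0.36 at 48 h (adjusted p = 0.573 and 0.102). Without replicate 3 in spheres the 48 h difference was 1.11 and passed (adjusted p = 0.0348). It also passed with cyclic loess (1.02, adjusted p = 0.0211) and with array weights (1.06, adjusted p = 0.00351). The remaining members of class 4 lay between -0.46 and 0.42 at 24 h and between -0.52 and 0.28 at 48 h, and none passed. Sema4a, a semaphorin of antigen-presenting cells, was among them at -0.46 ± 0.23 and -0.52 ± 0.23. The 4 class 6 semaphorins, transmembrane ligands of class A plexins, did not pass either, with Sema6b, Sema6c and Sema6d between 0.12 and 0.58 at 24 h and between -0.35 and -0.11 at 48 h, and Sema6a not above the filter level in spheres at 24 h.

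The 24 h call of Sema4d was lost without replicate 1 or 2 in spheres or any 1 of the 3 arrays outside, with adjusted p up to 0.147, and the 48 h call of Sema7a was lost without replicate 1 or 3 in spheres or replicate 2 or 3 outside, with adjusted p up to 0.122. Averaging all probe sets of a gene in place of the brightest brought differences closer to 0, at 24 h that of Sema3a to 0.65, Sema5a to 0.92 and Sema7a to -0.54, and at 48 h that of Sema3a to 0.57, Sema5a to 0.52 and Sema4d to -0.69. Of the semaphorin calls at 48 h, only that of Sema7a was then lost (-0.45, adjusted p = 0.0632).

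The ephrins, membrane-bound ligands that also signal back into the cell that carries them, had 2 of 7 members higher and 1 lower at each time. Efna5, a GPI-anchored ligand of EphA receptors, had 5.83, 5.30 and 5.09 in spheres, against 3.51, 3.56 and 3.91 outside at 24 h, a difference of 1.75 ± 0.30 (SE; adjusted p = 0.000909). The 48 h values were 5.31, 5.49 and 5.10 in spheres, against 3.03, 3.98 and 4.40 outside, a difference of 1.50 ± 0.30 (adjusted p = 0.00181). The arrays outside were spread by more than 1 at 48 h, and all of them lay below the lowest array in spheres. Efnb2, the transmembrane ligand of Ephb4 and a marker of arterial endothelium, had 5.40, 4.52 and 4.46 in spheres, against 3.30, 3.69 and 2.98 outside at 24 h (1.47 ± 0.25, adjusted p = 0.000871), and 4.70, 4.69 and 4.31 in spheres, against 3.19, 2.93 and 3.23 outside at 48 h (1.46 ± 0.25, adjusted p = 0.000653). The endothelial marker list was not higher in spheres, at 3.10 to 3.66 against 3.69 to 4.05 outside at 24 h and 3.03 to 3.57 against 3.44 to 3.61 outside at 48 h. Its genes moved both ways. Kdr had higher means in spheres at both times (5.18 against 4.71 and 4.85 against 4.39). Vwf (3.37 against 5.43 and 3.45 against 5.64), Tek and Esam had lower ones. Pecam1 was higher at 24 h alone, and Cdh5, Emcn, Egfl7 and Tie1 at 48 h alone. Tek and Tie1 did not exceed the filter level on any array. The part of endothelial cells was not tested. Efnb1, an EphB ligand, was lower in spheres, with 3.96, 3.69 and 3.45 against 4.35, 4.41 and 4.64 outside at 24 h (-0.77 ± 0.17, adjusted p = 0.00449) and 3.80, 4.09 and 3.47 against 4.29, 4.29 and 4.32 outside at 48 h (-0.51 ± 0.17, adjusted p = 0.0309). Efna1, Efna2, Efna4 and Efnb3 had differences from 0.10 to 0.68 and did not pass at either time. With array weights Efna1 passed as higher at 24 h and 48 h (adjusted p = 0.0191 and 0.0115). Without replicate 3 in spheres at 48 h it also passed at both times (0.0409 and 0.0413). With all probe sets averaged it passed at 24 h (0.72, adjusted p = 0.0475), and with the most variable one at 48 h (0.77, adjusted p = 0.0393). Efna2 passed at 48 h with array weights (adjusted p = 0.0241). The 48 h call of Efnb1 was lost without replicate 1 or 3 in spheres or any 1 of the 3 arrays outside, with an adjusted p of 0.115 and a difference of -0.36 without replicate 3 in spheres. Averaging all probe sets gave 0.91 for Efna5 and 0.63 for Efnb2 at 24 h and 0.70 and 0.72 at 48 h, and the calls of both genes held.

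Ntn1, the netrin that attracts or repels axons through DCC and Unc5 receptors and holds macrophages in tissue in mouse disease models, had 3.87, 3.91 and 3.32 in spheres, against 2.56, 2.42 and 2.33 outside at 24 h (adjusted p = 0.000213), and 3.32, 3.78 and 3.44 in spheres, against 2.76, 2.49 and 2.69 outside at 48 h (adjusted p = 0.00194). None of the 6 arrays outside exceeded the filter level. Ntn1 thus passed the filter only through the arrays in spheres, where it was high, and its adjusted p-values are a description. The differences have only bounds against that level, at least 0.93 at 24 h and 0.74 at 48 h on the log2 scale. The fit gave 1.27 ± 0.17 and 0.87 ± 0.17. Slit2, the secreted ligand of Robo receptors, had 6.36, 6.22 and 5.68 in spheres, against 4.53, 4.74 and 4.98 outside at 24 h, a difference of 1.34 ± 0.20 (SE; adjusted p = 0.000380). Arrays at 48 h gave 6.04, 6.06 and 5.86 in spheres, against 4.88, 5.39 and 5.43 outside, a difference of 0.75 ± 0.20 (adjusted p = 0.0102). Every array in spheres was above every array outside at the same time, and the arrays outside were higher at 48 h than at 24 h by 0.49 on average without passing the test (adjusted p = 0.383). Slit1 gave -0.31 ± 0.16 at 24 h and -0.14 ± 0.16 at 48 h and did not pass. The second probe sets of Ntn1 and Slit2 were under the filter level on all 12 arrays and add no measurement.

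**Figure D3:**
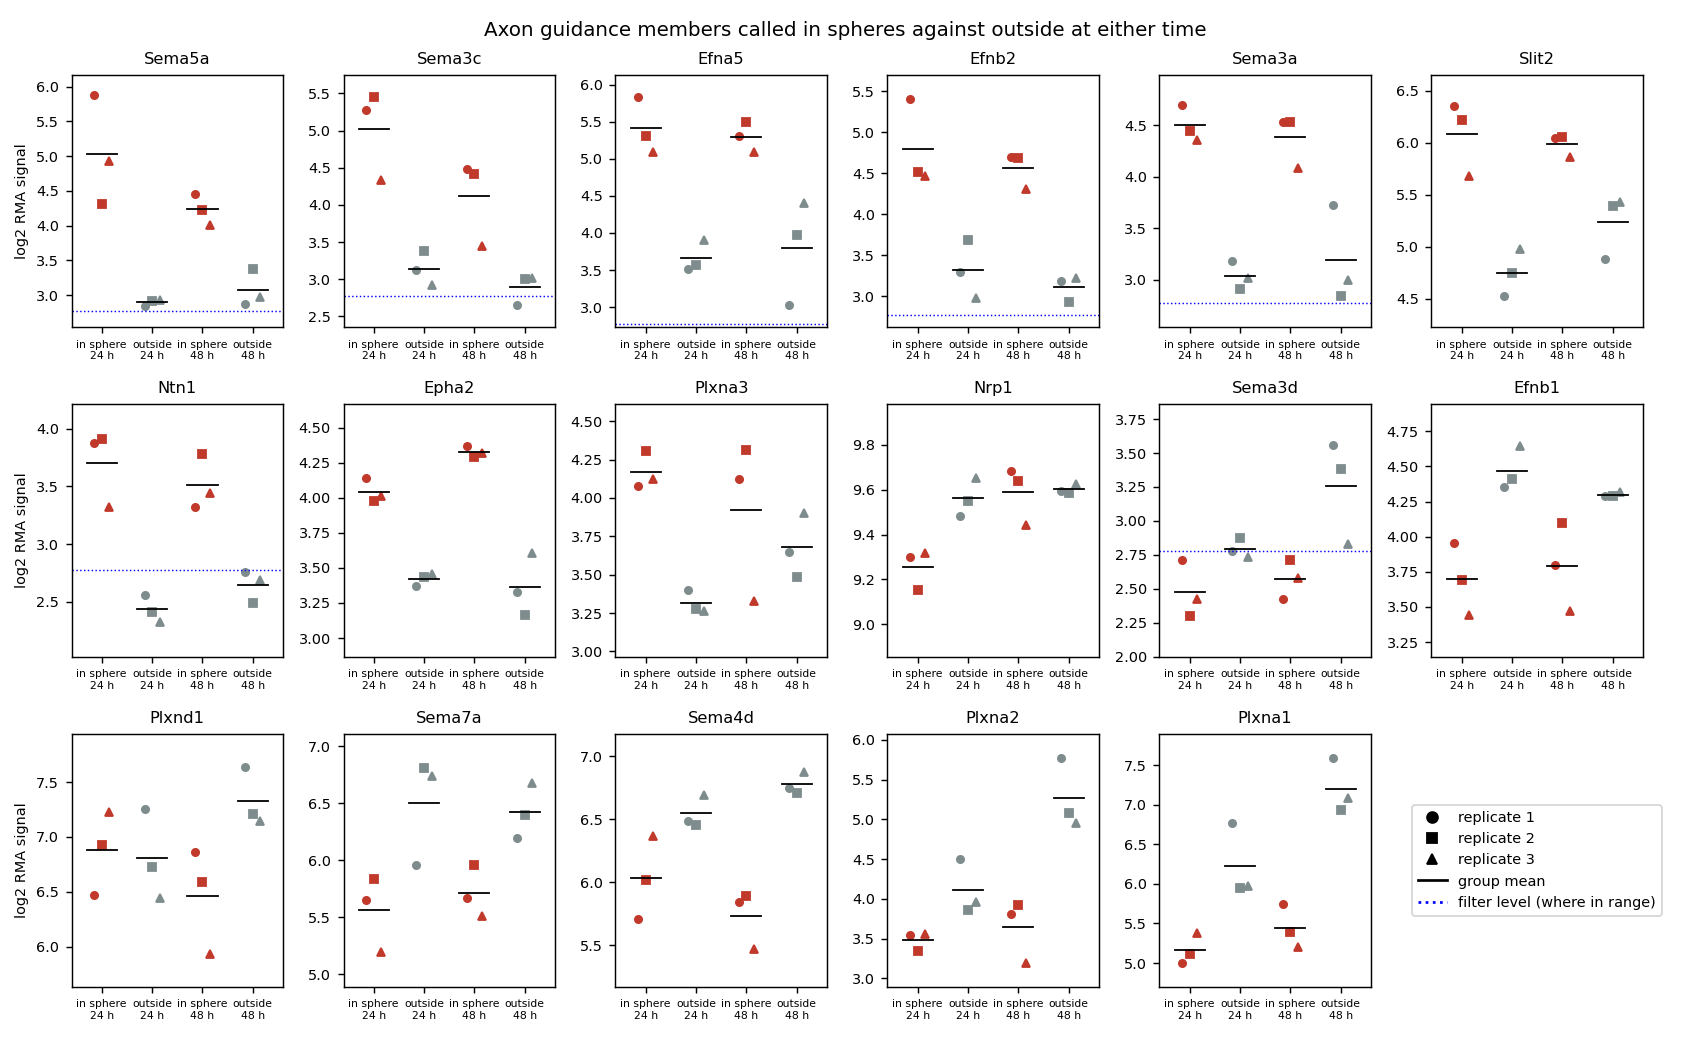
Log2 RMA signal on each array of the 17 members called in spheres against outside at 24 h, at 48 h or at both, in spheres (red) and outside (grey), with symbols for replicates 1, 2 and 3, a line for the group mean, and the filter level of 2.77 dotted where it is in range. Panels run from Sema5a, higher in spheres, to Plxna1, lower in spheres, and each has its own vertical scale.

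Within the spheres, the arrays ranked alike for many of the 8 members higher at both times. Replicate 1 was the highest of the 3 arrays at 24 h for 6 of the 8, and replicate 3 was the lowest for 6 of the 8 at 24 h and for 6 of the 8 at 48 h. The fibroblast and stromal list was 6.04, 5.67 and 5.32 on replicates 1, 2 and 3 in spheres at 24 h. Its members Col3a1, Pdgfra, Dcn, Lum, Thy1, Postn and Twist1 fell in that order. Col1a1, Col1a2, Pdgfrb, Fap and Acta2 did not. The macrophage list had 10.00, 10.27 and 10.46 on the same arrays. Replicate 3 in spheres at 48 h was also the lowest of the 3 for 4 of the 4 members lower at both times, and that array had the lowest mean signal of all, 4.06. At 48 h the stromal list had 5.91, 5.77 and 5.79 on these replicates in spheres. The part of these cells, and of the mean signal, in the order of the arrays was not tested.

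The plexins, the signalling receptors of the semaphorins, were all tested, and the 3 that were called at 48 h were lower in spheres. Plxna1, a partner of neuropilins that also takes part in the Trem2 and Tyrobp complex of myeloid cells in mice, had 5.00, 5.12 and 5.38 in spheres, against 6.77, 5.95 and 5.97 outside at 24 h, a difference of -1.06 ± 0.24 (SE; adjusted p = 0.00542). The values at 48 h were 5.75, 5.39 and 5.20 in spheres, against 7.60, 6.93 and 7.08 outside, a difference of -1.76 ± 0.24 (adjusted p = 0.000138), or 3.38-fold lower. The groups were apart at each time, and replicate 1 was the highest array outside at both. Plxna2, a receptor for class 3 and class 6 semaphorins, had 3.81, 3.92 and 3.20 in spheres, against 5.77, 5.08 and 4.95 outside at 48 h, a difference of -1.62 ± 0.25 (adjusted p = 0.000301), or 3.08-fold lower. At 24 h it had 3.55, 3.35 and 3.56 in spheres, against 4.50, 3.86 and 3.96 outside, a difference of -0.62 ± 0.25 that did not pass (adjusted p = 0.0804) although the arrays did not overlap. With the replicate number as a block the 24 h difference of Plxna2 passed (adjusted p = 0.0335). It also passed with cyclic loess (0.0444), array weights (0.0091) and only the 2 groups compared (0.03845). Without replicate 3 in spheres or replicate 1 outside at 48 h it passed too (0.0468 and 0.0465). With all probe sets averaged Plxna1 gave -0.65 at 24 h and -1.14 at 48 h, both called.

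Plxnd1, the receptor of Sema3c and Sema3e, had 6.86, 6.59 and 5.94 in spheres, against 7.64, 7.21 and 7.14 outside at 48 h, a difference of -0.87 ± 0.27 (SE; adjusted p = 0.0256). At 24 h it had 6.47, 6.93 and 7.23 in spheres, against 7.25, 6.73 and 6.44 outside, and the arrays of the groups were intermixed (0.07 ± 0.27, adjusted p = 0.891). Its 48 h call was lost without replicate 3 in spheres (-0.61, adjusted p = 0.105) and without replicate 1 outside (-0.71, adjusted p = 0.0995). Plxna3, which pairs with Nrp2 in axon repulsion, was higher in spheres at 24 h, with 4.08, 4.31 and 4.13 in spheres, against 3.40, 3.28 and 3.27 outside (0.86 ± 0.21, adjusted p = 0.00902). At 48 h the signals were 4.12, 4.31 and 3.33 in spheres, against 3.65, 3.48 and 3.90 outside (0.24 ± 0.21, adjusted p = 0.400), where replicate 3 in spheres fell below all arrays outside, and without that array the 48 h difference was 0.54 and passed (adjusted p = 0.0126). Plxna4, Plxnb1, Plxnb2 and Plxnb3 did not pass at either time, with differences from -0.36 to 0.10 at 24 h and from -0.41 to -0.18 at 48 h. Plxna4 passed as lower at 48 h with array weights (adjusted p = 0.00907) and with a stricter filter (0.0412). It also passed without replicate 1 in spheres at 24 h or at 48 h (0.0431 and 0.0145). Plxnb2 passed as lower at 48 h with array weights (0.0319). Plxnc1, the receptor of Sema7a, had 2.03, 2.47 and 2.01 in spheres, against 2.80, 3.05 and 2.24 outside at 24 h. With 0 of 3 arrays in spheres above the filter level and a mean outside under it too, no size is given. The test did not pass (adjusted p = 0.0631), but did with the replicate number as a block (adjusted p = 0.0292).

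The neuropilins, co-receptors for class 3 semaphorins and for vascular endothelial growth factor, exceeded the filter level on all 12 arrays. Nrp1 had 9.30, 9.15 and 9.32 in spheres, against 9.48, 9.55 and 9.65 outside at 24 h, a small difference of -0.31 ± 0.11 (SE; adjusted p = 0.0494). The signals at 48 h were 9.68, 9.64 and 9.44 in spheres, against 9.59, 9.58 and 9.63 outside, a difference of -0.01 ± 0.11 (adjusted p = 0.936). The 24 h call of Nrp1 was lost without any 1 of the 6 arrays of that comparison, with an adjusted p of 0.0575 to 0.154, and with the replicate number as a block (adjusted p = 0.0699). The call rests on the brightest Nrp1 probe set. Its other probe sets, with mean signals of 9.23 and 8.68, gave -0.18 and -0.03 at 24 h in a limma fit over all probe sets (adjusted p = 0.4705 and 0.9431). With all probe sets averaged the 24 h difference was -0.17 and did not pass (adjusted p = 0.309). The brightest Nrp2 probe set had 8.33, 7.83 and 8.08 in spheres, against 8.48, 8.05 and 8.36 outside at 48 h, with overlap (-0.22 ± 0.21, adjusted p = 0.455). Its other probe set had 7.08, 7.02 and 6.33 in spheres, against 8.37, 8.11 and 8.17 outside at 48 h, without overlap, and gave a difference of -1.41 with an adjusted p of 0.00227 in a fit over all probe sets. The Nrp2 probe sets therefore disagreed at 48 h, and at 24 h neither passed, at -0.46 ± 0.21 for the brightest and -0.24 for the other. With all probe sets averaged Nrp2 passed as lower at 48 h (-0.81, adjusted p = 0.00518). It also passed there with the most variable probe set (-1.41, adjusted p = 0.001455). The brightest passed at 24 h without replicate 2 outside (-0.70, adjusted p = 0.0178).

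**Figure D4:**
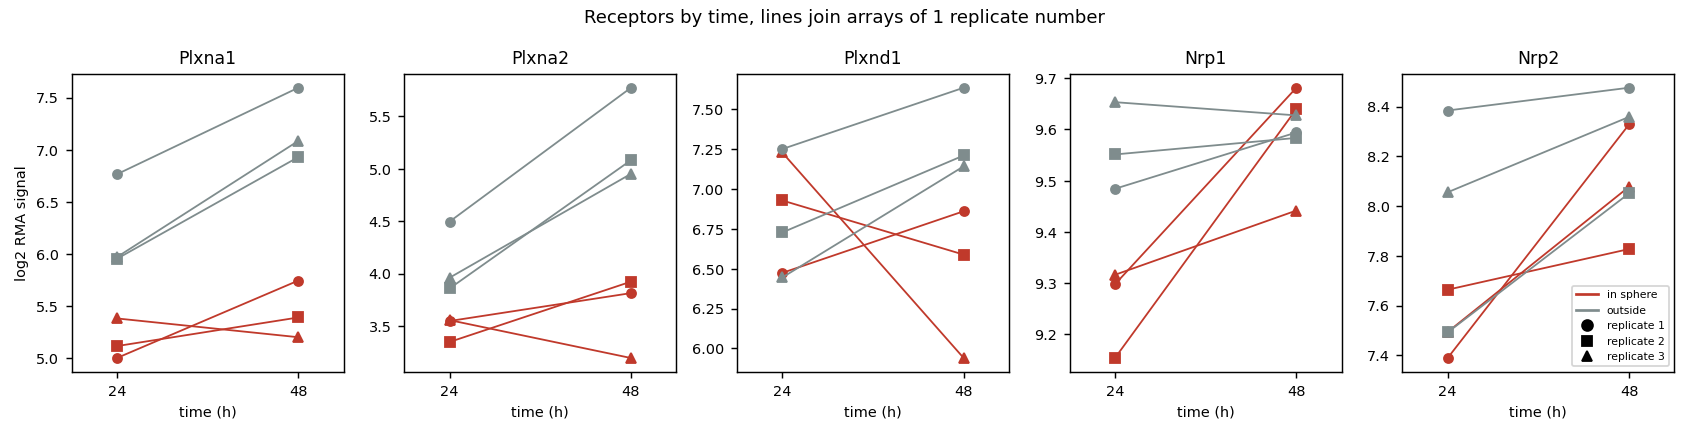
Log2 RMA signal of Plxna1, Plxna2, Plxnd1, Nrp1 and Nrp2 at 24 h and 48 h, in spheres (red) and outside (grey), with lines joining arrays of the same replicate number. For Plxna1 and Plxna2 all 3 lines outside run upward, while the 3 lines in spheres do not run one way and stay below every array outside at the same time.

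Of the 6 Eph receptors tested, which are receptor kinases for the ephrins, 1 was called. Epha2, an EphA receptor of epithelial and tumour cells, had 4.14, 3.98 and 4.02 in spheres, against 3.37, 3.44 and 3.46 outside at 24 h, a difference of 0.62 ± 0.12 (SE; adjusted p = 0.00225). By 48 h the signals were 4.37, 4.29 and 4.32 in spheres, against 3.33, 3.17 and 3.61 outside, a difference of 0.96 ± 0.12 with the lowest adjusted p of any member (7.71e-05). The arrays in spheres lay within 0.2 of each other at each time and above all arrays outside. Epha1, Epha4, Ephb1, Ephb3 and Ephb4 had differences from -0.37 to 0.45 at 24 h and from -0.34 to 0.24 at 48 h and did not pass. The arrays of Epha1 did not overlap at 24 h. It passed there as lower with arrays centred on their medians (adjusted p = 0.026), cyclic loess (0.0230) and array weights (0.00366), and without replicate 1 or 3 in spheres at 48 h. Ephb4 passed at 24 h as higher with array weights (adjusted p = 0.0217) and without replicate 3 in spheres (0.00889). The repulsive netrin receptors Unc5a, Unc5b and Unc5c did not pass at either time, with differences from -0.10 to 0.19 at 24 h and from -0.30 to -0.19 at 48 h.

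Set beside their ligands, the receptors gave mixed pairs. Sema3a and Sema3c were higher at both times, while their co-receptor Nrp1 was called lower at 24 h alone, and only on its brightest probe set. Of their plexins, Plxna1, Plxna2 and Plxnd1 were called lower at 48 h, Plxna3 was called higher at 24 h and Plxna4 was not called. Sema5a was higher at both times, and of its plexins Plxna1 was lower at both and Plxna3 higher at 24 h. Sema4d was lower at both times, with Plxnb1 at 0.10 ± 0.13 and -0.18 ± 0.13 and Plxnb2 at 0.05 ± 0.20 and -0.41 ± 0.20 at 24 h and 48 h, none of them called. Efnb2 was higher at both times, and its receptor Ephb4 gave 0.45 ± 0.20 and 0.24 ± 0.20, not called, with signals of 3.18, 3.08 and 3.03 in spheres, against 2.91, 2.75 and 2.91 outside at 48 h. Efna5 and its receptor Epha2 were both called higher at both times, and Epha4 at 0.14 ± 0.14 and 0.08 ± 0.14 was not. Slit2 was higher at both times, and its receptor Robo1, which failed the filter, had 2.82, 2.66 and 2.56 in spheres, against 1.85, 1.73 and 1.89 outside at 48 h. In a fit with no filter Robo1 passed at 48 h (adjusted p = 0.000806) and at 24 h (adjusted p = 0.0435), but only 1 array in spheres and none outside exceeded the filter level at each time, so no size is given. The other untested members did not pass in that fit, except Sema3g at 24 h (lower in spheres, adjusted p = 0.0283), likewise with no size.

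**Figure D5:**
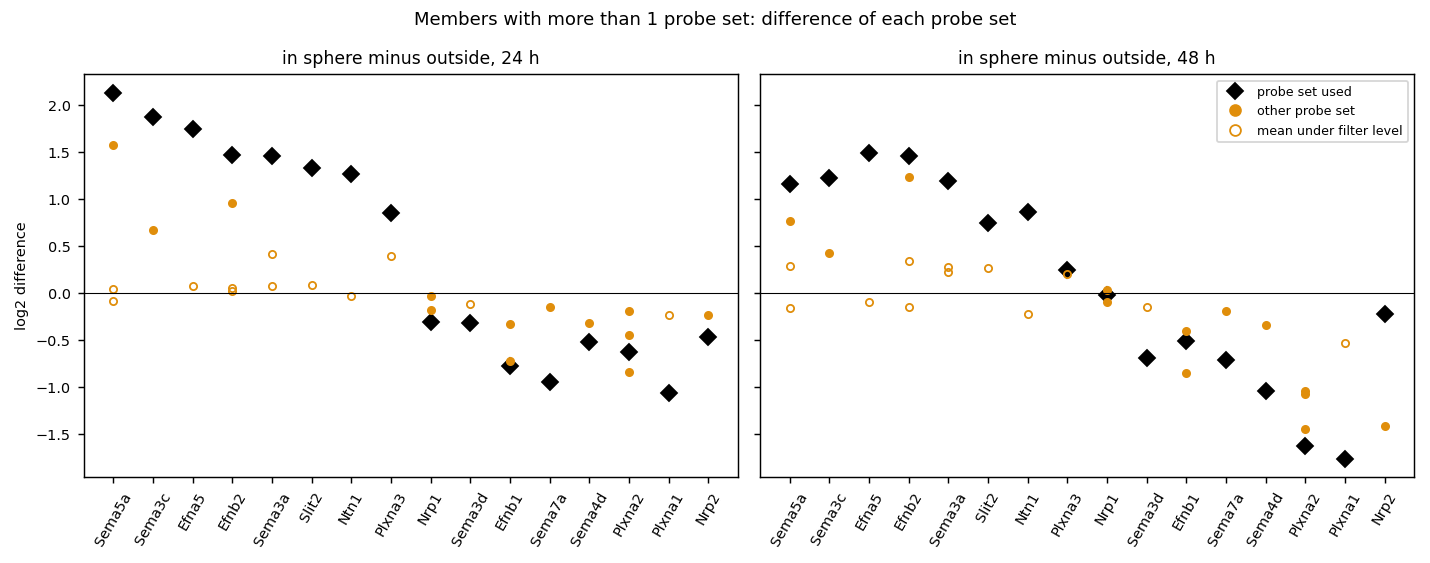
Log2 difference, in spheres minus outside, of each probe set of the called members with more than 1 probe set and of Nrp2, at 24 h (left) and 48 h (right), with diamonds for the probe set used and circles for the others, open where the mean over 12 arrays is under the filter level. Most other probe sets lie on the same side of 0 as the one used and closer to 0, whereas the second Nrp2 probe set lies further from 0 at 48 h.

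Among the 17 members called at either time, 15 had more than 1 probe set. Of their 24 other probe sets, 22 had the sign of the one used at 24 h and 19 at 48 h, and 12 had a mean under the filter level. For Plxna2 all 4 probe sets were called lower at 48 h, at -1.62, -1.44, -1.07 and -1.04. The one at -1.44 alone passed at 24 h (-0.84, adjusted p = 0.0326 in the limma fit over all probe sets). For Sema5a the other probe set above the filter level gave 1.58 at 24 h and 0.77 at 48 h, and for Efnb2 the other one gave 0.96 and 1.24. That of Sema3c gave 0.67 and 0.42 and passed at 24 h alone. For Efnb1 1 other gave -0.72 and -0.85 and passed at both times, and 1 gave -0.32 and -0.40 and passed at neither. Those of Sema4d (-0.32 and -0.33), Sema7a (-0.14 and -0.19) and Nrp1 passed at neither time.

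Collection at 48 h was compared with 24 h to see whether members moved with time. In spheres 0 of 48 members passed, as did 0% of all genes in limma, and 9 had an unadjusted p under 0.05, 6 higher and 3 lower at 48 h. Outside, 0 members passed beside 0.336% of all genes, and 5 had an unadjusted p under 0.05, 4 higher and 1 lower. Plxna2 gave the lowest adjusted p outside, with 5.77, 5.08 and 4.95 at 48 h, against 4.50, 3.86 and 3.96 at 24 h, a difference of 1.16 ± 0.25 (SE; adjusted p = 0.0742) without overlap. Plxna1 outside had 7.60, 6.93 and 7.08 at 48 h, against 6.77, 5.95 and 5.97 at 24 h (0.97 ± 0.24, adjusted p = 0.130). With the replicate number as a block both passed, with adjusted p of 0.0233 for Plxna2 and 0.0451 for Plxna1. In spheres the same genes gave 0.16 ± 0.25 and 0.28 ± 0.24. The change of the sphere difference from 24 h to 48 h passed for 0 members and 0% of all genes in limma, with 6 members at an unadjusted p under 0.05, 1 upward and 5 downward. These were Plxna2 (-1.003 ± 0.35), Sema5a (-0.97 ± 0.43), Plxnd1 (-0.94 ± 0.39), Sema6d (-0.92 ± 0.42), Sema4d (-0.53 ± 0.24) and, upward, Sema4c (1.11 ± 0.51), and their adjusted p-values ran from 0.282 to 0.401. No member was thus shown to differ in its response between the times.

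Genes that work with these ligands and receptors were taken as 6 further lists of 106 genes, of which 87 were tested. The lists were chosen with earlier results of these data known, so their shares are a description. At 24 h 16 were higher and 16 lower in spheres (36.8%), and at 48 h 16 were higher and 25 lower (47.1%), beside the 29.4% and 37.5% of all genes. The largest rises at 24 h were those of the immune checkpoint receptor Havcr2 (2.33 ± 0.22), the Unc5-binding protein Flrt3 (2.24 ± 0.31), the p21-activated kinase Pak3 (1.74 ± 0.25) and the neogenin ligand Rgmb (1.69 ± 0.28). Flrt3 (2.02 ± 0.31), Rgmb (1.58 ± 0.28), Pak3 (1.56 ± 0.25) and the collapsin response mediator Dpysl2 (1.46 ± 0.22) led at 48 h. Among the falls at 24 h were the transcription factor Nfatc1 (-1.08 ± 0.20), the exchange factor Vav2 (-1.03 ± 0.28) and the actin regulator Vasp (-0.90 ± 0.18). At 48 h they were Nfatc1 (-1.56 ± 0.20), the adaptor Nck2 (-1.46 ± 0.24), the Cdk5 activator Cdk5r1 (-1.27 ± 0.26) and Vav2 (-1.16 ± 0.28). All of these passed in limma, with adjusted p from 1.35e-05 to 0.0137.

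By list, the netrin and repulsive guidance molecule genes outside the member families gave 4 higher and 0 lower of 10 tested at each time, namely Flrt3, Rgmb, the receptor Neo1 (1.11 ± 0.25 at 24 h and 1.04 ± 0.25 at 48 h) and the neogenin ligand Rgma. No array outside was above the filter level for Rgma, which thus passed the filter only through arrays in spheres. Its difference is given as at least 0.27 at 24 h and at least 0.18 at 48 h. The list of semaphorin receptors other than plexins and neuropilins, and their relatives, gave 3 higher and 0 lower of 7 at each time, namely Havcr2, the Sema4d receptor Cd72 (1.03 ± 0.32 and 0.94 ± 0.32) and the Sema7a receptor subunit Itgb1 (0.92 ± 0.12 and 0.67 ± 0.12). Havcr2 is not an established semaphorin receptor but a relative of Timd2, a mouse receptor of Sema4a. Neo1, Rgma, Cd72 and Itgb1 were named after their values were seen. The cytoskeletal effectors gave 2 higher and 3 lower of 22 at 24 h and 3 higher and 11 lower at 48 h. Transducers of semaphorin signals gave 4 higher and 5 lower of 21 at 24 h and 3 and 5 at 48 h, those of Slit and Robo 2 and 5 of 13 and 1 and 6, and those of Eph and ephrin 1 and 3 of 14 and 2 and 3. Beside these counts, 15.8% of all genes tested were higher and 13.6% lower at 24 h. At 48 h 15.2% were higher and 22.3% lower. The lists are small, and whether their shares differ from these was not tested.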

How the data were processed

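RNA from 12 samples in 4 groups of 3 was hybridised to Affymetrix mouse arrays, per the labels. Per the submitters' processing notes, the authors ran RMA in Affymetrix Expression Console 1.1, and the deposited values are log2 signals per probe set. The method corrects background and normalises the arrays together, so differences of dim probe sets are understated and those in total RNA are lost. The deposited arrays still differed in mean log2 signal (4.06 to 4.22). Scanner files were not used here, and precision is limited by the number of arrays.

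The platform annotation gave 1 symbol for 28898 of 45141 probe sets, several for 551 and none for 15692. Per gene the probe set with the highest mean was kept (17097 genes). Genes above 2.77, the 40th percentile, in at least 3 arrays were tested (12488). A group-means model over all 12 arrays was fitted with limma 3.58.1 in R 4.3.3 (lmFit, contrasts.fit, eBayes with 8 residual and 4.09 prior degrees of freedom), adjusted by Benjamini-Hochberg over all tested genes and called at an adjusted p under 0.05. It was tested on simulated data. Replicate numbers were taken as pairing samples because each replicate was a separate experiment on the same cultures, per the series' design text. Deviations of same-numbered arrays outside at 24 h and 48 h correlated at 0.471, 0.473 and 0.419, those in spheres and outside at 0.0215, 0.120 and 0.0813 at 24 h and 0.117, 0.0417 and 0.112 at 48 h. The fit without the replicate block is the reported one, so its calls leave this pairing out. Over time outside, the block called 158 of the 12488 genes, where the reported fit called 42.

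Every member could be named, with values of each array for called members of at least 1 in size or with a partner described, and up to 4 called genes per direction and time from the other pathway lists. One gene that this rule names is not reported here. Members, lists and marker genes were chosen with earlier results of these data known. Alternatives were other scalings, filters, probe set rules, variance settings, array weights, the replicate block, a fit of only the groups compared, and leaving out each array.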

Additional observations from a re-analysis of the deposited data

Results flagged for a closer look

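Sema3e, the class 3 semaphorin that binds Plxnd1, drew attention because its sphere difference pointed in opposite directions at the 2 times on every array. At 24 h it had 3.11, 3.20 and 3.20 in spheres, against 3.27, 3.22 and 3.25 outside, and all arrays in spheres were lower. At 48 h it had 3.28, 3.38 and 3.22 in spheres, against 3.18, 3.11 and 2.99 outside, and all arrays in spheres were higher. Neither difference passed in limma, at -0.08 ± 0.10 at 24 h and 0.20 ± 0.10 at 48 h (SE, adjusted p = 0.633 and 0.141), although that at 48 h passed with cyclic loess (0.30, adjusted p = 0.0263) and with array weights (0.29, adjusted p = 0.0102). The change between the times, 0.28 ± 0.14, was tested in the same model and did not pass (adjusted p = 0.460).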

How the results depend on the processing

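Each result was recomputed under 22 alternatives, or 21 for the change of the sphere difference between times, and no called member changed sign. Of the 14 calls at 24 h and 15 at 48 h, 12 and 12 held in every alternative that tested the gene. Nrp1 at 24 h was lost in 15 alternatives (adjusted p 0.00507 to 0.423 over all of them), Sema4d at 24 h in 9 (up to 0.147), Efnb1 and Sema7a at 48 h in 6 each (up to 0.133) and Plxnd1 at 48 h in 2 (up to 0.105), and the cause was not tested. With array weights 25 members were called at 48 h (14 higher, 11 lower) in place of 15, 1 in spheres over time (Nrp1) in place of 0, and 1 outside over time (Plxna2) in place of 0. Cyclic loess called 1 outside over time and, at 48 h, 11 higher and 5 lower in place of 8 and 7. It moved the median difference of all genes at 48 h from -0.10 to 0.02. Without replicate 3 in spheres at 48 h the split was 11 higher and 4 lower. Sema4c at 48 h passed in 3 alternatives, and Sema4g in 3 at 24 h and 2 at 48 h, each as higher. Nrp2 at 48 h passed as lower under both other probe set rules. Further members, among them Efna1, Plxna2 at 24 h and Plxna4 at 48 h, also passed in some alternatives only. The replicate block called 2 members outside over time (Plxna1 and Plxna2). In the sphere comparisons it moved 3 calls, all at 24 h (Nrp1 lost, Plxna2 and Plxnc1 gained, the last not above the filter level in spheres), and changed no other call. Leaving out 1 array gave 12 to 17 calls at 24 h, 13 to 17 at 48 h, 0 to 0 in spheres over time, 0 to 1 outside and 0 to 0 for the change between times. Over all genes the alternatives gave 0 to 115 calls in spheres over time (0 reported), 0 to 286 outside (42 reported) and 0 to 130 for the change between times (0 reported). Signals near the filter level, as for Ntn1 outside and Sema3d in spheres, limit those differences to bounds.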
